A study of Mus musculus with 8 samples.

Results

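The transcripts of the PGC-1 coactivators, their receptor partner Esrra and the corepressor Nrip1 were examined for m6A peaks in innervated and denervated mouse calf muscle. All peaks that the 4 deposited peak lists assign by gene name to Ppargc1a, Ppargc1b, Pprc1, Esrra or Nrip1 were taken. These were 52 peaks of 38927. Joined across libraries by any overlap on their strand, they formed 17 regions of 13116, in 4 genes of 5987 with a peak. Esrra had no peak in any list.

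PGC-1 proteins are transcriptional coactivators. They do not bind DNA themselves but dock onto nuclear receptors such as ERRα, the product of Esrra, and the PPARs, and onto the factors NRF1 and NRF2, and so raise the expression of genes for mitochondria, fatty acid oxidation and oxidative fibre properties. RIP140, the product of Nrip1, docks onto many of the same receptors and represses oxidative genes. N6-methyladenosine (m6A) is deposited on messenger RNA by the METTL3-METTL14 complex, is commonly found in long internal exons and around stop codons, and affects stability and translation of the transcript.

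The mice were C57BL/6 males, 10 weeks old, and RNA was taken from the gastrocnemius of the calf, either 14 days after denervation or from the contralateral muscle, which is labelled untreated and called innervated here. Contralateral muscle is a control within the operated animal, not in an unoperated one. Each group had 2 antibody-captured (IP) libraries and 2 matching input libraries, and 1 peak list was made from each IP library against its own input, so n = 2 lists per group. The labels do not say that replicates came from separate animals, so spreads and p-values measure only the differences between these samples, which may be technical. The lists held 9327 to 10300 peaks, on 3011 to 3546 kilobases. Read counts were not analysed here, so the depth and the transcript levels are unknown, a missing peak does not show a missing mark, and in whole muscle fewer cells of a type cannot be told apart from less RNA per cell. None of 10 muscle fibre markers, such as Acta1, Ckm and Ttn, had a peak in these lists, so the tissue label could not be checked by them. The lists as used here may not be complete, so a gene without a peak is only one that these lists do not name. Of 17 markers of other cells, 9 had a peak, among them the endothelial Cdh5 and Kdr and the adipocyte Adipoq in all 4 libraries and the Schwann cell gene Ngfr in both denervated libraries alone. Their part in the results was not tested.

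Ppargc1a, Ppargc1b and Nrip1 carried peaks in all 4 libraries, as did 48.8% of the genes with a peak, and Pprc1 in 1 library of each group. No member gene was called in a single group alone. Among all genes with a peak, 3.42% were called in both denervated libraries and neither innervated one, and 3.14% in the opposite way. Likewise none of the 17 regions was denervated only or innervated only, beside 3.67% and 4.20% of all regions. Where called stretches of the members were ordered by group, it was in length, breaks, edges or rank. The length and the breaks were singled out after the values were seen. With n = 2 lists per group, these orders describe the lists and do not establish an effect of denervation. Of the 17 regions, 8 (47.1%) were called in all 4 libraries, beside 34.6% of all regions; 1 was called in 3 libraries, 3 in 2 and 5 in 1.

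**Figure D1:**
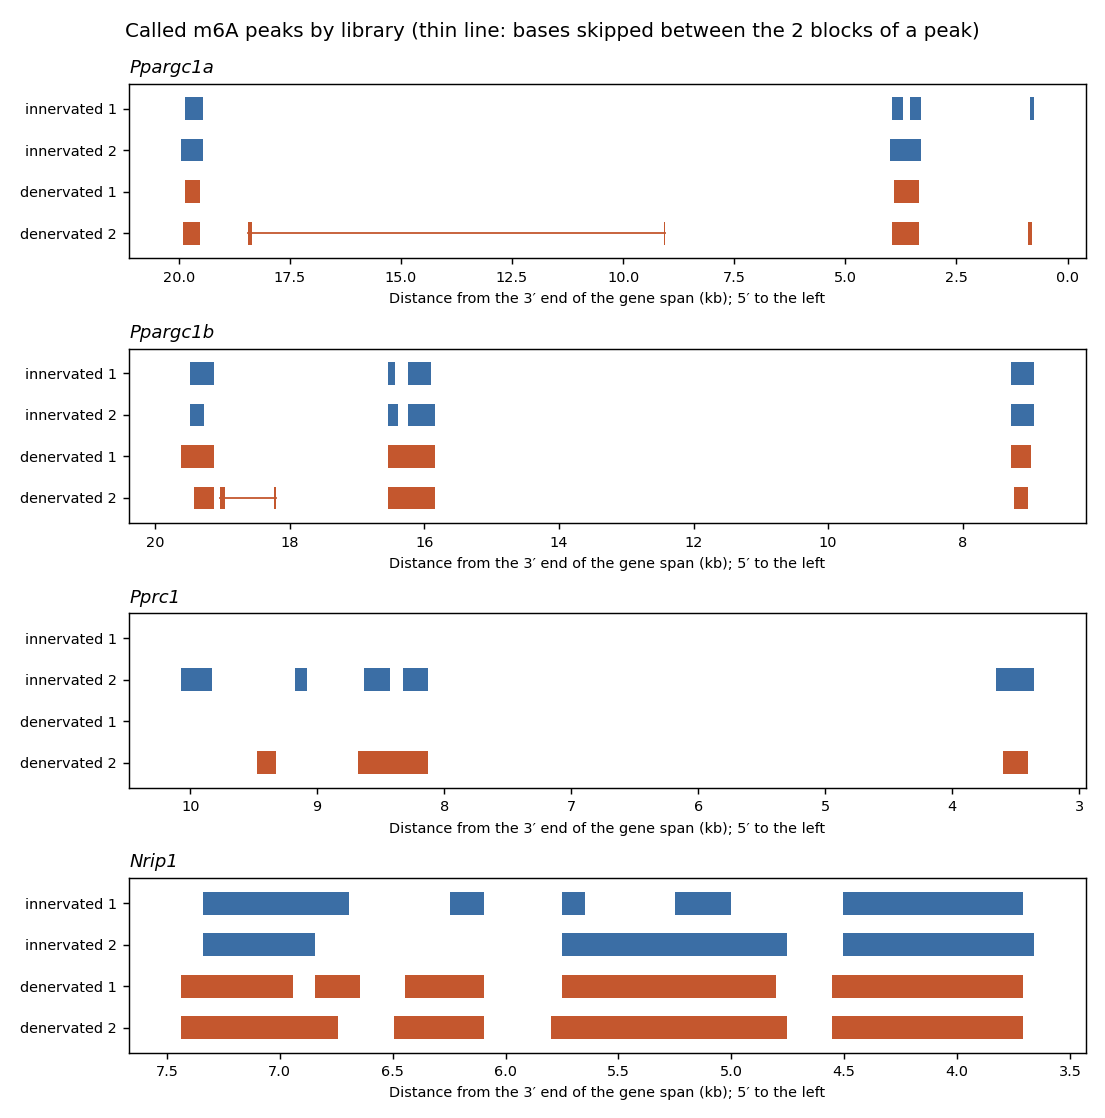
Called peaks of the 4 members that had any, by library (rows; blue innervated, orange denervated), along the distance in kb from the 3′ end of the gene span, with the 5′ side to the left. Bars are the blocks of a peak and a thin line joins the 2 blocks of a peak that skips the bases between them. Of the 12 regions of Ppargc1a, Ppargc1b and Nrip1, 8 recur in all 4 libraries, while Pprc1 has peaks in innervated 2 and denervated 2 alone.

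Ppargc1a encodes PGC-1α, the best known driver of mitochondrial biogenesis in muscle. The gene lies on the minus strand of chromosome 5 (mm10), with a RefSeq span from 51454249 to 52115853, which takes in far upstream start sites. All 12 Ppargc1a peaks lay within 20 kb of the 3′ end of this 662 kb span and formed 4 regions. Exon and UTR annotation was not used here, so their place is given by coordinates alone.

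The upstream Ppargc1a region, from 51473707 to 51474206, was centred 19.7 kb from the 3′ end and was called in every library. It covered 400 and 500 bases in innervated replicates 1 and 2, and 350 and 400 bases in denervated replicates 1 and 2, so the groups met at 400 bases. The 3′ edge of the region stood at 51473707 in both innervated libraries and at 51473757 in both denervated libraries, 50 bases further in.

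The second shared Ppargc1a region, from 51457546 to 51458245, was centred 3.65 kb from the 3′ end. It covered 501, 700, 550 and 600 bases in innervated 1, innervated 2, denervated 1 and denervated 2. In innervated 1 it was broken by a gap of 149 bases, and in the other libraries it was a single peak. Here too the 3′ edge stood 50 bases further in after denervation, at 51457596 in both denervated libraries against 51457546 in both innervated ones. This order, with the 3′ edges of both denervated libraries further in than those of both innervated libraries, was seen in 8.32% of all regions called in 4 libraries, and the opposite order in 6.83%. Edges within the shared regions of the members differed by no less than 49 bases wherever they differed, so that 50 bases is about the finest step that the lists resolve.

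Both remaining Ppargc1a regions did not follow the groups. A short region from 51454998 to 51455148, centred 0.824 kb from the 3′ end, was called over 101 bases in innervated 1 and in denervated 2 alone, a pattern shared by 1.56% of all regions. A peak from 51463315 to 51472685 was called in denervated 2 alone, as were 9.02% of all regions. It consisted of blocks of 13 and 88 bases with the stretch between them skipped, as a peak across a splice junction would be written. In all, Ppargc1a peaks covered 1002 and 1200 bases in the innervated libraries, and 900 and 1202 bases in the denervated ones. The means were 1101 ± 140 and 1051 ± 214 bases (SD, n = 2 each), and the difference was smaller than either SD (two-sided exact permutation test, p = 1.0). Its sign changed without innervated 2 (49 bases) and without denervated 1 (101 bases).

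Ppargc1b encodes PGC-1β, a close relative of PGC-1α that also raises oxidative metabolism. It lies on the minus strand of chromosome 18, in a span from 61291445 to 61400756. Its 15 peaks formed 4 regions, 3 of them called in every library, as in 5.86% of the genes with a peak, which held at least 3 such regions.

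The middle shared region of Ppargc1b differed in form between the groups. From 61307293 to 61307984, centred 16.2 kb from the 3′ end, it was broken into 2 peaks in each innervated library and was whole in each denervated library. The gap ran from 61307689 to 61307884 in innervated 1 (196 bases) and from 61307689 to 61307835 in innervated 2 (147 bases). The region covered 447 and 545 bases in the innervated libraries against 692 bases in both denervated libraries, with no overlap between the groups. That order of covered bases was seen in 14.8% of all regions called in 4 libraries. Among all regions called in 4 libraries, 1.94% were split in both innervated libraries and whole in both denervated ones, and 1.65% were split and whole the other way round. These shares are similar in both directions, and the form of a region was singled out after its values were seen.

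The region of Ppargc1b nearest the 5′ end, from 61310573 to 61311067 and centred 19.4 kb from the 3′ end, covered 347 and 198 bases in the innervated libraries and 495 and 298 bases in the denervated ones, which overlap. The region nearest the 3′ end, from 61298383 to 61298729 and centred 7.11 kb from it, was narrower in both denervated libraries. It covered 347 bases in both innervated libraries, 298 in denervated 1 and 198 in denervated 2, and lay in the 13.3% of regions that covered fewer bases in both denervated libraries. The shared regions of Ppargc1b thus differed in direction. The fourth region, from 61309652 to 61310475, was called in denervated 2 alone and had 2 blocks, of 31 and 69 bases. The 2 peaks of this form among the members, in Ppargc1a and Ppargc1b, both came from denervated 2, in which 14.8% of all peaks had more than 1 block, beside 11.5% to 12.5% in the other lists.

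Summed over the gene, Ppargc1b peaks covered 1141 and 1090 bases in the innervated libraries and 1485 and 1288 bases in the denervated ones. The groups did not overlap, with means of 1116 ± 36.1 and 1386 ± 139 bases (SD, n = 2 each) and a ratio of 1.24. An exact permutation test over 2 against 2 libraries cannot give less than 0.333 (two-sided), and gave p = 0.333. Of the 2924 genes called in all 4 libraries, 15.6% covered more bases in both denervated libraries than in both innervated ones, and 17.2% fewer, so the order alone does not set Ppargc1b apart. The difference of 271 bases was 544 with lists of equal size and −224 when only the 50% of peaks with the largest scores were kept. The rise to 544 came from the trimming. It dropped the innervated 2 peaks at percentile 2.56 and the denervated 2 peak at 1.13, while innervated 1, the shortest list, lost none.

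Pprc1 encodes PRC, the third member of the coactivator family, known as an early response gene of growth stimulation. It lies on the plus strand of chromosome 19, in a span from 46056526 to 46072909. Pprc1 peaks were called in innervated 2 and denervated 2, and in neither library numbered 1. This arrangement, across the groups, was found for 2.09% of the genes with a peak, and its mirror, in the libraries numbered 1 alone, for 1.94%. The labels do not say that same-numbered libraries share an animal or a batch.

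Of the 5 Pprc1 regions, 2 were called in both of these libraries. The one from 46064231 to 46064780 covered 401 bases in innervated 2, where a gap of 99 bases broke it, and 550 bases in denervated 2. The other, from 46069257 to 46069556 and nearer the 3′ end, covered 300 bases in innervated 2 and 200 bases in denervated 2. A peak from 46062833 to 46063083 and another from 46063732 to 46063832 were called in innervated 2 alone, and 1 from 46063432 to 46063582 in denervated 2 alone. In all, Pprc1 peaks covered 0, 1053, 0 and 901 bases in innervated 1, innervated 2, denervated 1 and denervated 2. The difference between the libraries numbered 1 and 2 within a group thus far exceeded that between the groups.

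Esrra encodes ERRα, the orphan nuclear receptor through which PGC-1α acts on many mitochondrial genes. Its span, on the minus strand of chromosome 19 from 6910977 to 6922048, held 0 peaks of any name on either strand. Whether Esrra RNA was present was not measured here.

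Nrip1 carried the longest stretches of the members. The gene lies on the minus strand of chromosome 16, in a span from 76287403 to 76373827, and its coding sequence is known to lie in a single exon. Its 17 peaks formed 4 regions packed between 76291061 and 76294843, 4.11 to 7.04 kb from the 3′ end by their centres. The median over the libraries was 2592 covered bases, more than in 97.6% of the 2924 genes called in all 4 libraries, whose median by the same measure was 728 bases.

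The region of Nrip1 nearest the 5′ end, from 76294047 to 76294843, covered 648 and 498 bases in the innervated libraries, and 699 and 698 bases in the denervated ones, with no overlap. Of all regions called in 4 libraries, 14.8% covered more bases in both denervated libraries and 13.3% fewer. The 5′ edge of this Nrip1 region stood at 76294743 in both innervated libraries and at 76294843 in both denervated libraries, 100 bases further out. In denervated 1 alone it had a gap of 98 bases.

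The next region of Nrip1, from 76293499 to 76293897, covered 150 bases in innervated 1, had no peak in innervated 2, and covered 349 and 399 bases in denervated 1 and 2. It was thus longer in both denervated libraries than in innervated 1, the single innervated library with a peak there. Its calls were shared by 2.40% of all regions, and the share with that order of length is not given here. The third, from 76292156 to 76293201, covered 350, 996, 947 and 1046 bases in innervated 1, innervated 2, denervated 1 and denervated 2. A gap of 397 bases set innervated 1 apart there, and the other libraries were alike.

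The region of Nrip1 nearest the 3′ end, from 76291061 to 76291957, was the most even, with 797 and 847 bases in the innervated libraries and 847 bases in both denervated ones. Its 5′ edge was again further out after denervation, at 76291957 in both libraries against 76291907. A 5′ edge further out in both denervated libraries was found in 10.6% of the regions called in 4 libraries, and one further in, in 7.99%.

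Over the whole Nrip1 transcript, peaks covered 1945 and 2341 bases in innervated 1 and 2, and 2842 and 2990 bases in denervated 1 and 2. Every denervated value was above every innervated one. The means were 2143 ± 280 and 2916 ± 105 bases (SD, n = 2 each), a ratio of 1.36 (exact permutation test, two-sided p = 0.333, the smallest possible). Among the genes called in all 4 libraries this ratio had a median of 1.0, with quartiles of 0.867 and 1.16. Since the lists differ in total length, the values were also taken per megabase called: 646 and 660 in the innervated lists, and 882 and 881 in the denervated ones, a ratio of 1.35. By that measure 19.5% of the genes were higher in both denervated lists, as Nrip1 and Ppargc1b were. The difference of 773 bases for Nrip1 was 575 to 971 with any 1 library left out and 1271 with lists of equal size, but −424 when only the 50% of peaks with the smallest scores were kept. The rise to 1271 came from the trimming. It dropped the innervated 2 peak of 996 bases, at percentile 6.35, while innervated 1, the shortest list, lost none. Covered length was chosen as a measure after the values were seen.

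**Figure D2:**
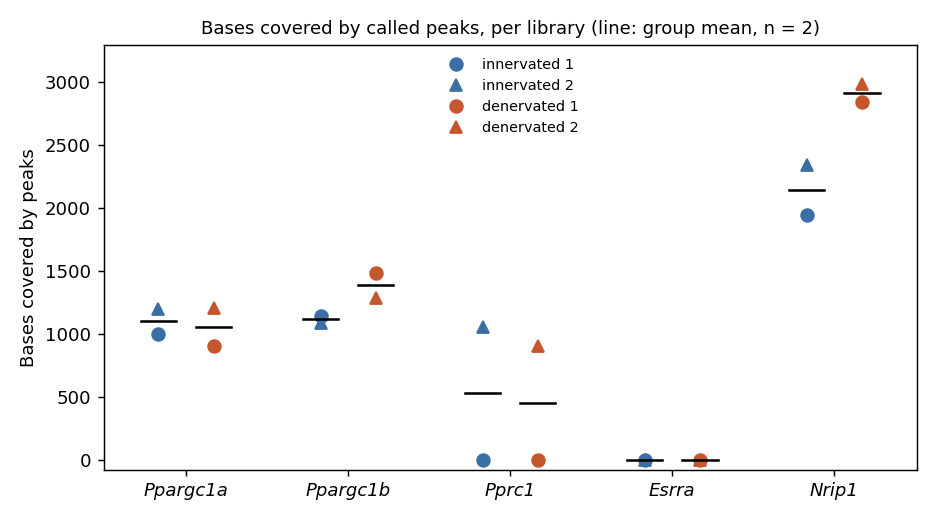
Bases covered by called peaks of each member, per library (circles, number 1; triangles, number 2; blue innervated, orange denervated; black line, mean of 2 libraries). Nrip1 and Ppargc1b lie higher in both denervated libraries (2842 and 2990, and 1485 and 1288), Ppargc1a overlaps between groups, Pprc1 is split by library number and Esrra is at 0.

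Summed over the 5 genes, 10 and 12 regions were called in innervated 1 and 2, and 9 and 15 regions in denervated 1 and 2. The means were 11 ± 1.41 and 12.0 ± 4.24 regions (SD, n = 2 each), and the difference of 1.0 was below the spread between replicates (two-sided exact permutation test, p = 1.0). Its sign turned without denervated 2 (−2.50), it was 0 without innervated 1, and it was 2.00 without innervated 2 and 4.0 without denervated 1.

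The lists give a score for each peak, the authors' own value, which is taken here only as a rank within a list. The percentile is 100 at the smallest score, which is read as the strongest peak because the scores have the range of a p-value. What the score measures is not given in the sources used here, so the best peak of each gene was also taken with large scores read as strong, a choice added after seeing the data. Peaks of a gene often share a score: in innervated 1, 3 of the Ppargc1b peaks had 0.0055, and of the genes with several peaks in a list 80.7% to 89.3% had equal scores among them. The rank may therefore belong to the transcript more than to the place on it.

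By rank, Ppargc1a stood in the middle of the lists. The best Ppargc1a peak was at percentile 68.7 and 44.4 in innervated 1 and 2, and at 54.1 and 55.0 in denervated 1 and 2, which overlap. The means were 56.6 ± 17.2 and 54.5 ± 0.663 (SD, n = 2 each; exact permutation test, two-sided p = 1.0), and the mean over the 4 libraries was above that of 50.5% of the genes called in all 4. With large scores read as strong, the best Ppargc1a peaks stood at 97.2, 64.9, 49.3 and 72.0 in innervated 1, innervated 2, denervated 1 and denervated 2, out of the middle in innervated 1. The upstream Ppargc1a region alone ranked higher in both denervated libraries, at 54.1 and 55.0 against 43.5 and 35.1. Of all regions called in 4 libraries, 17.7% ranked higher in both denervated lists and 17.7% lower in both.

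Ppargc1b ranked low in 3 of the 4 lists. Its best peak stood at 24.3 and 18.7 in innervated 1 and 2, at 63.1 in denervated 1 and at 6.98 in denervated 2. Denervated 1 thus stood apart from every other library, its own partner included, in all 3 shared regions, which ranked at 42.6, 54.1 and 63.1 there and at no more than 24.3 elsewhere. The group means of the best peak, 21.5 ± 4.0 and 35.1 ± 39.7 (SD, n = 2 each), differed by less than the spread (exact permutation p = 1.0, two-sided). The 5′ and middle regions were nevertheless ordered by group, at 5.02 and 2.56 in the innervated lists against 6.98 in denervated 2, a narrow margin. By the median over all its peaks the groups of Ppargc1b were separate, with a difference of 26.7 (exact permutation p = 0.333, two-sided). With large scores read as strong, its best peaks stood at 95.0, 97.4, 57.4 and 98.9, and denervated 1 again stood apart.

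For Nrip1 the order by rank depended on how the score was read. With small scores as strong, the best Nrip1 peak, which was the region nearest the 3′ end in each library, stood at 49 and 59.7 in the innervated lists and at 46.0 and 29.4 in the denervated ones. The groups did not overlap, with means of 54.4 ± 7.60 and 37.7 ± 11.7 (SD, n = 2 each; exact permutation test, two-sided p = 0.333, the smallest possible). They did overlap by the median over its peaks, at 4.05 and 48.2 against 6.73 and 12.3, and with large scores read as strong, at 97.3 and 93.6 against 93.9 and 95.4 (exact permutation p = 1.0 for each). The region nearest the 5′ end stood lower in both denervated lists, at 6.15 and 17.8 against 25.2 and 48.2. The third region overlapped, at 2.66 and 6.35 in the innervated and 16.4 and 4.58 in the denervated lists. Of the genes called in all 4 libraries, 17.3% had a best peak of lower percentile in both denervated lists and 16.7% of higher percentile. Ranks of separate lists describe each list and do not measure a change in methylation.

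**Figure D3:**
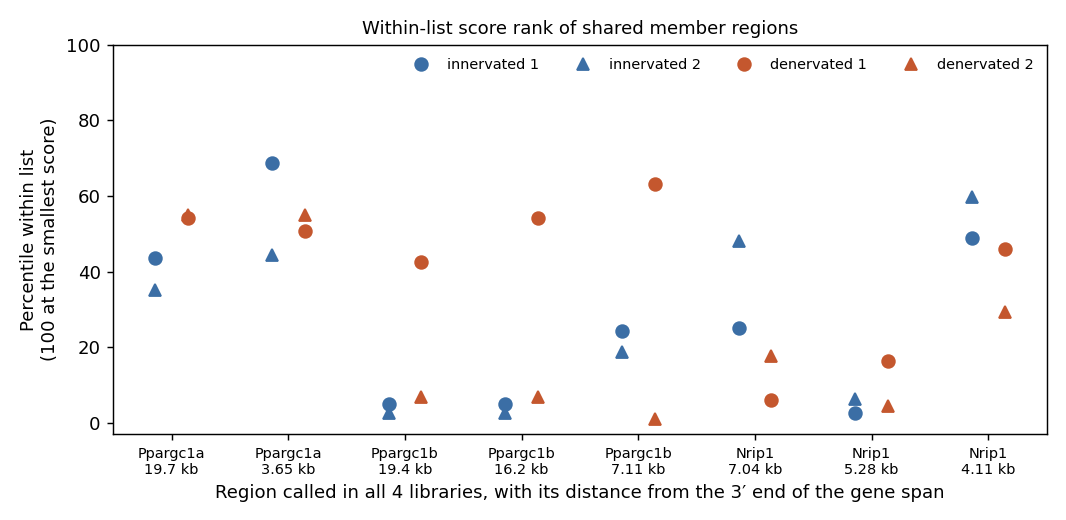
Percentile within its list of the best peak of each of the 8 member regions called in all 4 libraries (100 at the smallest score; circles, number 1; triangles, number 2; blue innervated, orange denervated), with the distance of the region from the 3′ end of the gene span. Denervated 1 stands high in the 3 Ppargc1b regions, at 42.6 to 63.1, and 2 of the 3 Nrip1 regions lie lower in both denervated libraries.

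Other genes of the PGC-1 network were counted from a list of 67 receptors, DNA-binding partners, cofactors and targets. Of these, 43 had a peak, 21 of them in all 4 libraries (48.8%, the same share as among all genes with a peak). Of the 43, 1 was innervated only and 0 were denervated only, beside 3.14% and 3.42% of all genes with a peak. The remaining 24 had no peak in any list. Of the 108 regions on the list, 3 were denervated only and 4 innervated only, beside 3.67% and 4.20% of all regions, so that neither count stood out from the shares over all regions.

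Ncor1 was the single gene of the list called in both libraries of a group and in neither library of the other. Since 3.14% of all genes with a peak were innervated only, 1 such gene among 43 does not stand out. Ncor1 is described because it was the 1 found. The gene encodes a corepressor that binds nuclear receptors and recruits histone deacetylase 3, and that opposes oxidative gene expression in muscle. Peaks covered 802 and 852 bases of Ncor1 in innervated 1 and 2 and none in denervated 1 and 2. Its 3 regions, on the minus strand of chromosome 11, ran from 62317575 to 62318025, from 62373116 to 62373366 and from 62383206 to 62384797, and each was called in both innervated libraries. Its best peaks stood at percentile 37.1 and 31.7, so the call was lost when only the 50% of peaks with the smallest scores were kept in each list.

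Receptors that PGC-1 proteins dock onto were called unevenly. Of 11 receptors, 6 had a peak, and of these Rxra, the common partner of PPARs, was the 1 called in all 4 libraries. Esrrg, the ERRγ gene of oxidative fibres, had 0, 2, 3 and 4 peaks in innervated 1, innervated 2, denervated 1 and denervated 2. Its covered length was 0, 301, 651 and 702 bases in the same order, higher in both denervated libraries. The share of genes with such an order is not given here for genes missing from a library, so Esrrg cannot be set against it. An Esrrg region on chromosome 1 from 188212094 to 188212244 was denervated only, as were 3.67% of all regions. Ppard, the PPAR of muscle fatty acid use, had 1 peak of 199 bases in innervated 2, denervated 1 and denervated 2 and none in innervated 1. That peak stood at percentile 0.466 in innervated 2 but at 54.8 and 57.9 in the denervated lists. Ppara had a peak in innervated 1 alone, and Pparg and Esrrb had none.

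Of 12 coactivators, 9 had a peak, and 7 of these were called in all 4 libraries. For this and the other groups of the list, the share over all genes with a peak is 48.8%, and with so few genes nothing particular to a group was read from it. Med1, a Mediator subunit bound by nuclear receptors, covered 2803, 2506, 2304 and 2654 bases in innervated 1, innervated 2, denervated 1 and denervated 2, and Ep300, a histone acetyltransferase that PGC-1α recruits, covered 2404, 2704, 2355 and 2604 bases. Both overlapped between the groups, as did Ncoa6 and Crtc3. Covered bases were lower in both denervated libraries for Ncoa1 (1800 and 1598 innervated, 1400 and 1450 denervated) and Ncoa2 (1296 and 1349, 1247 and 1146). Crebbp, named here with its values known, was lower too (2438 and 2487, 2189 and 2239). Of all genes called in 4 libraries, 17.2% were lower in both denervated ones and 15.6% higher. Of the p160 and related coactivators, Ncoa1, Ncoa2 and Ncoa6 were called in all 4 libraries and Ncoa3 in innervated 1 and denervated 1 alone, the mirror of the Pprc1 calls. Of the CREB coactivators, Crtc3 was called in all 4 libraries, and Crtc1 and Crtc2 had no peak.

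Of 10 DNA-binding partners, 6 had a peak, and 2 of these were called in every library. Nrf1, which switches on nuclear genes of mitochondria, covered 402 and 552 bases in the innervated and 603 and 753 bases in the denervated libraries, with no overlap. That order was seen in 15.6% of the genes called in all 4 libraries, and the opposite order in 17.2%. Nrf1 also held a denervated-only region on chromosome 6 from 30151611 to 30151761, a class with 3.67% of all regions. Foxo1, a forkhead factor coactivated by PGC-1α, covered 1441 and 1936 bases in the innervated and 1835 and 2085 bases in the denervated libraries. Of 16 oxidative targets, 9 had a peak and 5 of these were called in all 4 libraries, among them Tfam, the mitochondrial transcription factor, with a best percentile of 78.2 to 99.5. Perm1, a muscle regulator induced by PGC-1 and ERR, covered 1302, 1400 and 652 bases in innervated 1, innervated 2 and denervated 2, with no peak in denervated 1. Tfam and Perm1 were chosen as examples with their values known. For genes missing from a library, such as Perm1, no share with a like order of covered bases is given here.

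**Figure D4:**
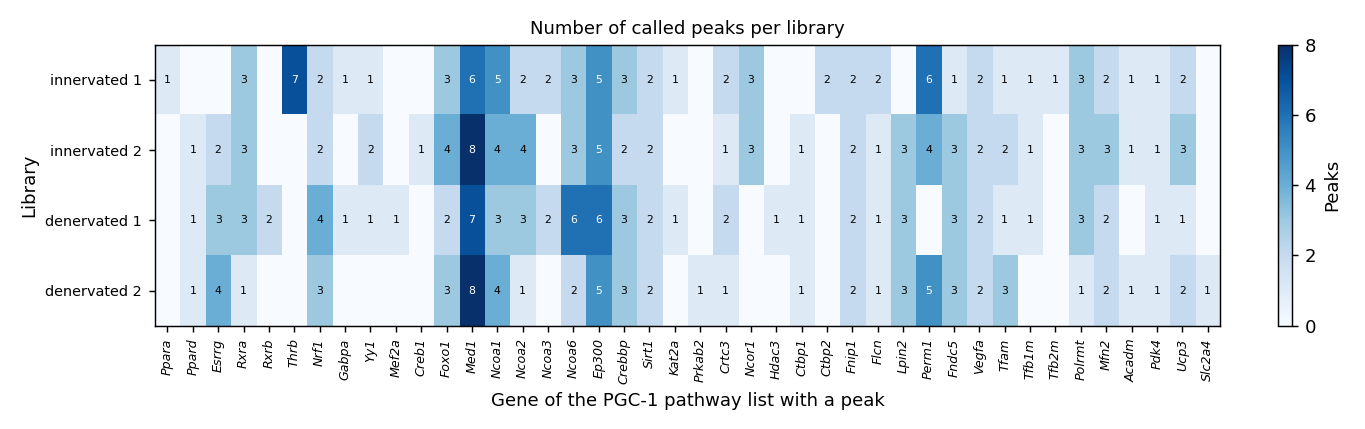
Number of called peaks (colour and digit, blank for none) in each library (rows) for 42 genes of the PGC-1 network list with a peak (columns). Ncor1 has 3 peaks in each innervated library and none in the denervated ones, while coactivators such as Med1 and Ep300 have 5 to 8 in every library.

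Genes with the same number of peaks as a member in every library, and the nearest best percentiles, were few. For Ppargc1a there were 3 such genes, and the nearest were Adam17, a membrane protease, and Rbm12, an RNA-binding protein, at mean differences of 18.3 and 22.1 percentile points over the 4 libraries. For Ppargc1b there were 4, led by Pik3r4, a subunit of the class III phosphoinositide 3-kinase, and Tns3, a focal adhesion protein, at 18.7 and 33.2. For Nrip1 there were 2, Nup50, a nuclear pore protein, at 16.3, and Purb, a nucleic acid binding protein, at 51.9. These distances are wide, and 4 libraries are few to compare patterns over.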

How the data were processed

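The deposited data were 4 peak lists in BED form, each made by the authors from 1 IP library against the input of the same group and number, per the names of the lists. Per the labels' protocols, m6A-RNA was captured by antibody and sequenced from libraries that keep the strand. Per the submitters' processing notes, STAR 2.4.2a, ChIPseeker and mm10 were used. For the peak caller and its threshold, the sources used here give nothing. The score of each peak is the authors' deposited value.

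Peaks were linked into regions across lists by at least 1 shared base of blocks on the same strand. A region or gene found in both lists of a group and in none of the other was called specific to that group (denervated only or innervated only). Linking was run on simulated lists in which all peaks of a region overlapped and regions lay far apart. That checks the code only, since closely spaced regions such as those of the members were not simulated. Starts are given counting from 1. Gene spans came from RefSeq (GRCm38.p6, the assembly of mm10), and list names were matched to them by symbol. Differences in group means were tested by exact two-sided permutation (numpy 2.4.6, Python 3.11.15). Percentiles were ranked with scipy 1.17.1.

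The members and gene lists were chosen with earlier results of these data known. Named were all members, every group-specific gene of the network list, its first 8 genes called in all 4 libraries, its PPAR, ERR, Ncoa, Ncor and Crtc genes (1 gene that this rule names is counted but not reported here), and for each member called in all 4 libraries the 2 genes with equal peak counts and nearest percentiles. Some marker and list genes named as examples were chosen after their values were seen. Alternatives were reciprocal overlap, score limits, equal list sizes, assignment by gene span, other rank definitions and leaving out each library.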

Additional observations from a re-analysis of the deposited data

How the results depend on the processing

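The calls of Ppargc1a, Ppargc1b and Nrip1 in every library held with equal numbers of peaks. They also held by gene span, where every peak within a member's span already bore its name. Reciprocal overlap of at least 50% and leaving out 1 library could not undo them. Gene calls rest on names, and a gene called in all 4 libraries stays called when 1 is left out. When each list was limited to the 50% of peaks with the smallest scores, 0 members were called in every library, and with the largest scores 2 were. In all settings 0 member genes were group-specific. Denervated-only and innervated-only member regions were 1 (Nrip1) and 1 (Ppargc1b) with reciprocal overlap, 1 (Ppargc1a) and 0 with the smallest scores, and 0 and 1 (Ppargc1a) with the largest scores. Leaving out a library, which loosens the definition, gave 0 to 3 and 0 to 2. The shares over all regions under these settings are not given here, so nothing was read from these counts.

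The difference in mean member regions (1.0) was −1.0 with reciprocal overlap, −1.50 with the largest scores, 2.50 with the smallest, 3.0 with equal numbers of peaks and −2.50 to 4.0 without 1 library. With the replicate block, that is, within each number, it was 1.0 (−1 for number 1 and 3 for number 2; exact permutation p = 1.0). The labels do not pair the numbers. Across 13116 regions the deviations of same-numbered libraries had a correlation of −0.00107. With 2 pairs of call patterns this value cannot decide whether same-numbered samples share an animal or a batch. By the median over its peaks, the rank difference of Ppargc1a turned from −2.04 to 5.73, that of Ppargc1b went from 13.6 to 26.7 with the groups now separate, and that of Nrip1 from −16.7 to −16.6 with the groups now overlapping (exact permutation p = 1.0). With large scores read as strong, chosen after seeing the data, the differences were −20.4, −18.1 and −0.854.

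Covered length, whose alternatives were chosen after seeing the data, turned with score limits, which keep or drop whole peaks near percentile 50. With the smallest scores the difference was 750 bases for Ppargc1a and −424 for Nrip1, of which only the innervated 2 peak of 847 bases was left. With the largest scores it was −224 for Ppargc1b. With equal numbers of peaks it was 544 for Ppargc1b and 1271 for Nrip1. Both rises came from the trimming, which dropped low-ranked peaks of innervated 2 and none of innervated 1, the shortest list. Without innervated 2 and without denervated 1 that of Ppargc1a was 49 and 101 bases, within a range of −201 to 101 bases over the libraries left out.

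Of the network list, 8 genes were called in every library with the smallest scores and 8 with the largest. Denervated-only genes were then 2 (Ppard and Fndc5) and 1 (Vegfa), and innervated-only genes 1 (Rxra) and 4 (Ncor1, Perm1, Fndc5 and Tfb1m). Without 1 library they were 0 to 4 and 2 to 5. The shares over all genes with a peak under these settings are not given here, so nothing was read from these counts. Ncor1 was among the innervated-only genes each time, which the definition fixes in advance for a gene with its calls. Unknown depth limits every absence reported here.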
